A study of Mus musculus and Callithrix jacchus with 22 samples.

Results

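Interneurons named as derived from the caudal ganglionic eminence (Inh_CGE in the authors' annotation) numbered 551 of the 4866 cells recovered from newborn mouse cortex. The whole mouse table held 19145 cells and the series, with marmoset, 35064. The members were chosen by this name alone, and the name occurred only at postnatal day 1 (P1). In marmoset the interneuron names are Inh_Vip, Inh_Sst, Inh_Pvalb and Inh_NPY. The study asked how open chromatin differs between neuron classes and ages of the neocortex. Cells came from combined somatosensory and motor cortex of wild-type C57BL/6 mice at P1, P7 and P21, with 4 libraries at each age and no treatment. At each age 2 libraries carry a number after the age in their title and 2 carry the word Pool, and these are called numbered and Pool libraries here. The sources used here do not say what sets these kinds apart, nor how many animals went into a library of this assay. The labels describe a sort of Td-tomato projection neurons for these samples, whereas the study describes unfractionated tissue. The effect of such a sort on the shares of neuron types was not tested.

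Cortical interneurons are the inhibitory neurons of the cortex and release GABA, which is made by the enzymes encoded by Gad1 and Gad2. They are born outside the cortex, in the ganglionic eminences of the ventral forebrain, and migrate into it. The caudal eminence (CGE) gives rise to Vip and reelin cells and to many neurogliaform cells, which settle mainly in the upper layers, and many of these cells keep the transcription factor Prox1. The medial eminence (MGE) gives rise to parvalbumin and somatostatin (Sst) cells. At P1 the young interneurons are still settling in the cortical plate, and most of the later subtype markers are not yet fully expressed. The name Inh_CGE rested on gene activity scores that the authors computed from open chromatin near marker genes. For each cell the tables used here give its library, cluster and type name, its read total and how many peaks it reached, but no value for a gene, so accessibility at Gad1, Gad2 and Prox1 was not analysed here and the name was not checked against them.

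The assay, single-cell ATAC-seq, tags accessible DNA with a transposase, and a peak is a region of open chromatin called across the cells. A peak counted for a cell when at least 1 of its reads fell there. Mouse libraries held 893 to 3407 cells, and the P1 libraries held 2113 and 949 (numbered 1 and 2) and 893 and 911 (Pool 1 and 2). Total reads at P1 were 11505864, 6654120, 2224286 and 2186788 in the same order. The numbered P1 libraries stood apart from all others. Their cells had a median of 17.1 and 10.7 peaks per 100 reads, whereas the other 10 mouse libraries had 52.1 to 57.8. Their lowest peak count was 300, the lowest in the mouse table, and 565 and 570 in the Pool libraries. Each result at P1 is therefore given within the numbered and the Pool libraries as well.

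CGE-derived interneurons were found in all P1 libraries, with 197 and 104 cells in numbered libraries 1 and 2 and 126 and 124 cells in Pool libraries 1 and 2. They made up 14.1% ± 2.14 of named neurons (SD, n = 4 libraries). The single shares were 11.4% and 13.3% in the numbered libraries and 16.1% and 15.5% in the Pool libraries, so that both Pool values lay above both numbered ones. Of all cells with a name they were 12.6% ± 2.33, and of all recovered cells 12.0% ± 2.26. They were thus less frequent than callosal neurons (CPN, 44.8% ± 2.38 of neurons), which connect the hemispheres, and than corticothalamic neurons (CthPN, 23.7% ± 1.71), which project to the thalamus, in every P1 library. Beside subcerebral neurons (ScPN, 9.11% ± 1.21), which project to brainstem and spinal cord, they were the more numerous type in all 4 libraries.

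Among interneurons, CGE-derived cells outnumbered MGE-derived cells (Inh_MGE, 347 cells) in every P1 library. They were 55.5% of interneurons in numbered library 1 (95% exact binomial interval 50.2% to 60.7%) and 55.6% in numbered library 2 (48.2% to 62.9%). In Pool libraries 1 and 2 they were 68.9% (61.6% to 75.5%) and 71.7% (64.3% to 78.3%). These intervals cover counting error only. The ratio of CGE-derived to MGE-derived cells was 1.25 in both numbered libraries, and 2.21 and 2.53 in the Pool libraries.

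Libraries of the same kind had nearly the same split, and libraries of different kinds did not. Numbered libraries 1 and 2 differed by 0.122 percentage points and Pool libraries 1 and 2 by 2.82. All 4 pairs of a numbered with a Pool library differed by more than counting error, by 13.2 to 16.2 points (Fisher's exact test on cell counts, two-sided, adjusted p = 0.00254 to 0.0151 over 6 pairs). Neither pair within a kind did (adjusted p = 1.00 and 0.678, Fisher's exact test). These tests compare libraries and not conditions. Over libraries, the Pool mean of 70.3% lay 14.7 points above the numbered mean of 55.6%. An exact permutation test of 2 against 2 libraries cannot go below p = 0.333, and this was its value.

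The total of both interneuron types overlapped between the kinds of library. Interneurons were 20.6% and 23.9% of neurons in the numbered libraries and 23.3% and 21.7% in the Pool libraries, with neither kind above the other. The Pool mean was 0.232 points above the numbered mean (p = 1.00 by exact permutation, 2 against 2 libraries). The higher CGE-derived share of Pool libraries, by 3.42 points of neurons, stood beside a lower MGE-derived share, which was 9.15% and 10.6% in numbered and 7.26% and 6.13% in Pool libraries, a difference of -3.19 points. Among the other neurons, callosal neurons were less frequent in Pool libraries, by -4.12 points, and corticothalamic neurons more frequent, by 2.55 points, with no overlap between the kinds for either. Subcerebral neurons differed by 1.33 points, with overlap. With 2 against 2 libraries none of these could pass (p = 0.333 for callosal and corticothalamic and 0.667 for subcerebral neurons, exact permutation tests). Set against all other neurons in place of MGE-derived cells, the CGE-derived share differed by more than counting error in 2 of 6 pairs. These were numbered library 1 against Pool library 1 (4.64 points, adjusted p = 0.00960) and against Pool library 2 (4.11 points, adjusted p = 0.0140, Fisher's exact tests), whereas numbered library 2 differed from the Pool libraries by 2.73 and 2.20 points (adjusted p = 0.268 and 0.269, Fisher's exact tests).

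**Figure D1:**
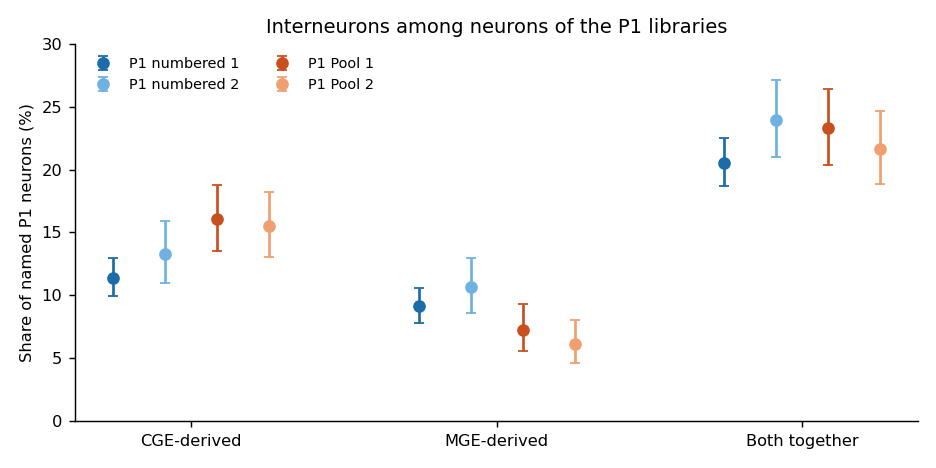
Share of named P1 neurons (vertical axis, %) that were CGE-derived, MGE-derived or either, for each of the 4 P1 libraries. Points are library values and bars are 95% exact binomial intervals. CGE-derived shares are 11.4% and 13.3% in numbered and 16.1% and 15.5% in Pool libraries, MGE-derived shares go the other way, and the sums overlap.

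Each CGE-derived interneuron carried between 1003 and 14907 reads. The median was 4523 and 6945 reads in the numbered libraries, against 2086.5 and 1943 in the Pool libraries. The order turned for peaks: the median was 813 and 754 in the numbered libraries and 1208 and 1161.5 in the Pool libraries. Numbered libraries were therefore higher in reads and lower in peaks, with no overlap of the library medians in either measure.

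Peaks followed reads closely within a library, at a rate that depended on the library. Median peaks per 100 reads of CGE-derived cells were 17.4 and 10.6 in the numbered and 57.9 and 58.0 in the Pool libraries. In both Pool libraries all of these cells lay between 53.4 and 61.6 peaks per 100 reads. In the numbered libraries they ranged from 14.5 to 34.9 and from 8.34 to 29.7. Pearson's r between reads and peaks over cells was 0.981 and 0.924 in the numbered libraries and 0.999 in both Pool libraries, given as a description, since cells of a library share its depth and preparation. MGE-derived cells had close values, with 17.1, 10.7, 56.5 and 57.6 peaks per 100 reads in the same order of libraries, so the rate differed far more between kinds of library than between the interneuron types.

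**Figure D2:**
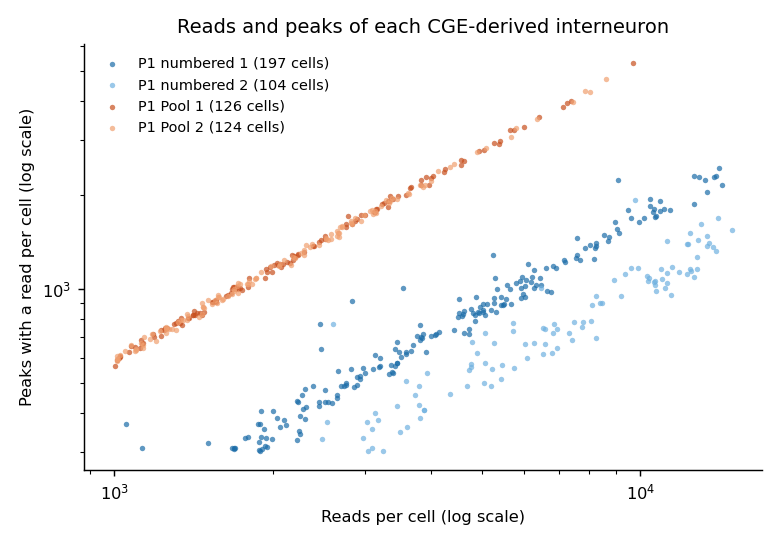
Reads per cell (horizontal axis) against peaks with a read (vertical axis), both on log scales, with 1 point for each of the 551 CGE-derived interneurons, coloured by library. Cells of both Pool libraries lie on the same line at 57.9 and 58.0 peaks per 100 reads, and cells of numbered libraries 1 and 2 lie on lower bands at 17.4 and 10.6.

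The authors kept cells with at least 1000 reads and 300 peaks and also set upper limits on both. Many CGE-derived cells of the numbered libraries had low peak counts. Of these cells, 68 of 197 (34.5%) and 31 of 104 (29.8%) had fewer than 570 peaks. Of all cells in numbered libraries 1 and 2, 30.3% and 35.5% did, so low counts were not particular to CGE-derived cells. The share differed between neuron types, from 21.4% (ScPN) to 36.1% (MGE-derived) in numbered library 1. In numbered library 2 the same types marked the ends, at 23.3% and 50.6%. In the Pool libraries 1 of 126 and 0 of 124 CGE-derived cells had fewer than 570 peaks. By reads, the lowest CGE-derived cells of the Pool libraries had 1003 and 1010, and the lower quartiles were 1443.25 and 1432.25. How far these limits shaped each kind of library was not tested. At the upper end, 20 and 34 CGE-derived cells of the numbered libraries had over 10000 reads, and 0 in either Pool library. The highest had 14280 and 14907 reads in the numbered and 9685 and 8616 in the Pool libraries. How far the upper limit on reads cut off cells of either kind was not tested.

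Median reads and median peaks were higher in CGE-derived than in MGE-derived interneurons of the same library in all 4 libraries. Median peaks of the MGE-derived cells were 682, 561, 1113 and 914, which left the CGE-derived cells 131, 193, 95 and 247.5 peaks higher in numbered 1 and 2 and Pool 1 and 2. The mean difference was 167 peaks ± 67.4 (SD, n = 4 libraries), or 1.19, 1.34, 1.09 and 1.27-fold. For reads the differences were 422.5, 1705, 192.5 and 363, with a mean of 671 ± 696, so that numbered library 2 set much of that mean. Without it the mean was 326 reads. The direction in Pool library 1 depended on the summary used. With means in place of medians CGE-derived cells of that library were at -9.65 peaks and -71.1 reads from MGE-derived cells, and with at least 2000 reads per cell their medians were at -96.5 peaks and -300 reads. The mean difference in peaks over libraries was then 91.7 and 83, with 3 of 4 libraries higher. With 4 paired libraries no difference could pass: the exact sign-flip test over library pairs gave p = 0.125 for both measures, its smallest value (adjusted p = 0.375 over 6 comparisons, exact permutation test).

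The difference in peaks was small beside the spread among cells. Interquartile ranges of peaks in CGE-derived cells were 490 to 1090, 547.5 to 1104, 835.5 to 1907.25 and 826.25 to 1661 in the same order of libraries. A CGE-derived cell drawn at random had more peaks than an MGE-derived cell of the same library in 53.1%, 63.2%, 52.3% and 60.3% of pairs, where 50% would be even. Numbered library 2 and Pool library 2 had the larger separation, and the other two were close to even.

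At matched reads, the difference in peaks between CGE-derived and MGE-derived cells was small. Cells were compared in bins of reads 0.25 wide on the log2 scale, which left the CGE-derived cells 19.6, -9.39, 22.5 and 16.0 peaks apart from MGE-derived cells. The mean was 12.2 ± 14.6 (SD, n = 4), and no library exceeded 2.20% of its mean peak count (p = 0.25, adjusted p = 0.50, exact sign-flip permutation test). The higher peak count of CGE-derived cells thus stood beside their higher read count, and library differences at matched reads went both ways.

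Beside the 3194 pyramidal neurons of P1, which are excitatory and send axons to other regions, CGE-derived cells showed no common direction. Median reads differed by -455.5 in numbered library 1 and by 349, 163.5 and -10 in the others, a mean of 11.8 ± 344. Median peaks differed by -61, 29, 85.5 and 29, a mean of 20.6 ± 60.6 (SD, n = 4). Neither passed (adjusted p = 1.00 and 0.75, exact sign-flip permutation tests), and the reads went up in 2 and down in 2 libraries. At matched reads the peak difference was 3.86 ± 8.72 (adjusted p = 0.75, exact sign-flip permutation test, n = 4), and the largest single value was 11.9 peaks. Among the 5 neuron types of P1, CGE-derived cells ranked 4, 2, 2 and 1 by median peaks in the same order of libraries. MGE-derived cells ranked last in all but Pool library 1.

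**Figure D3:**
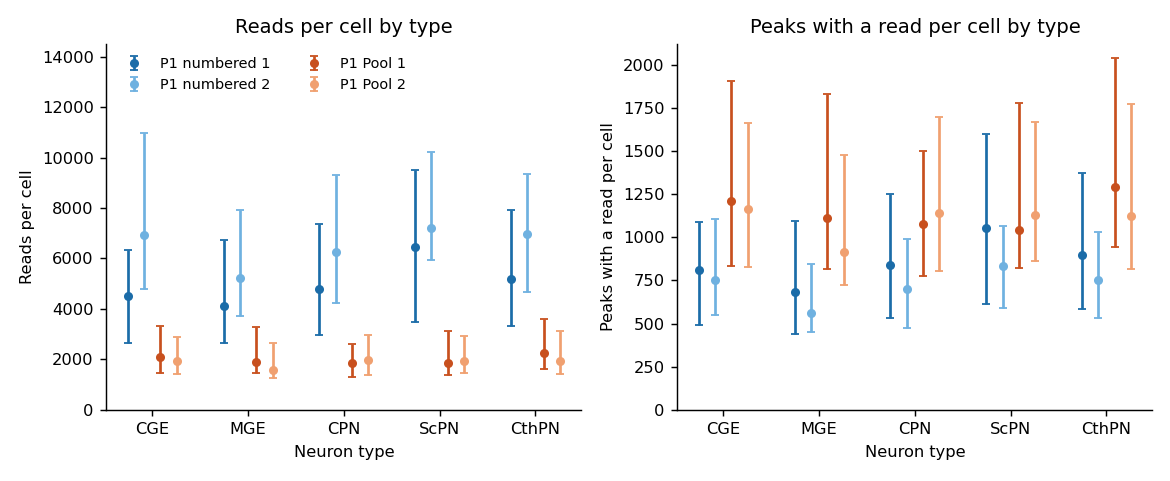
Reads per cell (left) and peaks with a read per cell (right) for the 5 neuron types named at P1, by library. Points are medians over cells and bars run from the lower to the upper quartile. CGE-derived medians lie above MGE-derived ones in each of the 4 libraries in both panels, by 95 to 247.5 peaks, within wide spreads among cells.

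The CGE-derived share of interneurons was higher among cells with many peaks in each library. Neurons of a library were divided at their median peak count, which was 847, 719, 1136 and 1125. Below it, CGE-derived cells were 51.7%, 45.5%, 64.4% and 67.0% of interneurons. At or above it they were 61.0%, 67.0%, 72.9% and 76.8%, higher by 8.55 to 21.6 points in 4 of 4 libraries. The share of MGE-derived cells among neurons was lower above the median in all 4 libraries, with differences of -6.43 to -1.33 points. The CGE-derived share of neurons was not uniform, with differences of -2.21, 3.55, 3.44 and 0.462 points. These divisions use the same cells as the comparison of medians above and were made after it, so they describe it further and are no separate evidence. With 4 libraries the exact sign-flip permutation test gave p = 0.125, 0.125 and 0.375 for these 3 differences, and 0.125 is the smallest it allows.

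A common peak minimum narrowed the gap between numbered and Pool libraries without closing it. With at least 570 peaks per cell, the CGE-derived share of interneurons was 56.1% and 64.0% in the numbered and 68.7% and 71.7% in the Pool libraries. The distance between the means went from 14.7 to 10.1 points. Numbered library 2 then no longer differed from the Pool libraries by more than counting error (4.65 and 7.64 points, adjusted p = 0.537 and 0.291), whereas numbered library 1 still did (12.6 and 15.6 points, adjusted p = 0.0321 and 0.0105, Fisher's exact tests). With at least 1000 peaks the shares were 57.3%, 73.1%, 71.2% and 77.7%, on 52 to 111 interneurons per library, and numbered library 2 lay between the Pool libraries. The same minimum admits different numbers of reads in the 2 kinds of library. The part that peak yield and cell recovery had in the difference between kinds was not tested.

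**Figure D4:**
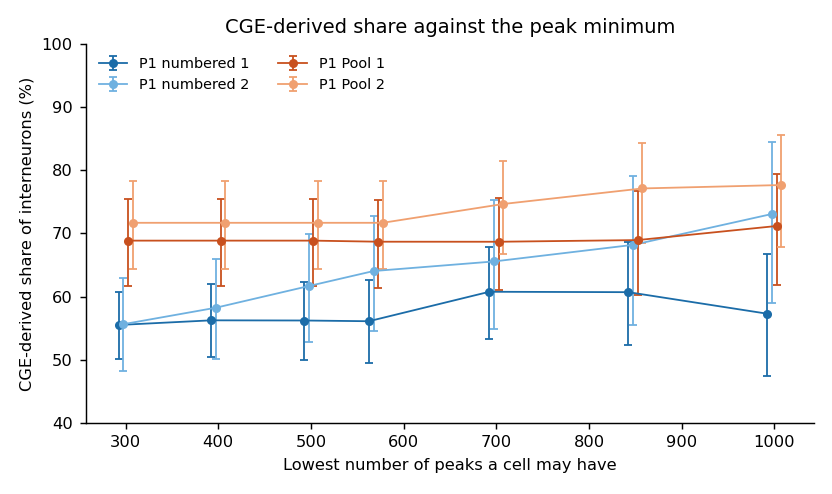
CGE-derived share of P1 interneurons (vertical axis, %, starting at 40) against the lowest number of peaks a cell may have (horizontal axis), by library, with points set slightly apart. Bars are 95% exact binomial intervals. At 300 peaks both numbered libraries lie near 55.5%, and at 1000 numbered library 2 has reached 73.1% while numbered library 1 is at 57.3%.

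All 551 CGE-derived interneurons belonged to a single cluster, cluster 11, of the 31 clusters in the mouse table, and every P1 cell of that cluster carried the name. Cluster 11 held 624 cells, of which 88.3% came from P1. The remainder were 57 cells of P7 and 16 cells of P21, and all 73 of these were left unassigned by the authors. By library, cluster 11 held 9.32%, 10.96%, 14.1% and 13.6% of P1 cells. At P21 it held 0.117%, 0.0999%, 0.352% and 0.379%, or 2 to 5 cells per library. Clusters were formed on the accessibility of these same cells, so sizes across ages are described and not tested.

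The P7 cells of cluster 11 came mostly from a single library. Pool library 2 held 45 of the 57, or 3.13% of its cells (95% exact binomial interval 2.29% to 4.17%). The other P7 libraries held 4, 6 and 2 cells, or 0.271%, 0.419% and 0.112%. Without Pool library 2, 12 P7 cells remained in the cluster. The 45 cells had a median of 2350 reads and 1296 peaks, below the medians of that library (3295 and 1824), and 56.1 peaks per 100 reads, close to its 55.3. The other clusters with a P1 name and at least 99.5% of their cells from P1, callosal cluster 1, corticothalamic cluster 10 and subcerebral cluster 16, held 5, 2 and 0 cells of this library. Together the 4 clusters held 52 of its cells, and 6, 8 and 2 cells of the other P7 libraries.

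Absence of the name after P1 went with group size, and the paper gives a rule on group size. It states that clusters holding several ages were split by age, and that groups under 100 cells were then removed. Of 56 combinations of cluster and age in the mouse table, 24 had fewer than 100 cells, and 0 of these 24 had a named cell. Of the 32 larger ones, 31 had a name and 1 had none, and the smallest named group had 102 cells. The P7 and P21 cells of cluster 11 fell below this size. Groups under 100 cells are still among the cells analysed here, without a name, so the rule as stated does not describe them. Whether the rule led to the missing names was not tested. The lack of a name in the later cells of cluster 11 is no measure of whether CGE-derived interneurons were present in cortex at these ages.

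The cluster of MGE-derived interneurons took a different course. Cluster 6 held 347 P1 cells named Inh_MGE and 571 P7 cells named Inh_Sst, at 7.65% to 10.7% of cells in each P7 library, and 7 unassigned cells of P21. Its P7 cells outnumbered its P1 cells, but the library shares of these ages overlapped, with 5.38% to 8.75% at P1. Cluster 11 instead had 57 cells at P7 beside 551 at P1. The other named interneurons of P7 lay in cluster 13, named Inh_Npy after neuropeptide Y, a peptide found in several interneuron types. At P21 the names were Inh_Npy (cluster 13), Inh_Sst (cluster 17, 359 cells) and Inh_Pval (cluster 19, 326 cells). Cluster 13 held 184 cells at P7 and 265 at P21, at 2.51% to 3.73% of cells in each of these libraries. It also held 53 unassigned P1 cells, 27, 14, 7 and 5 by library. Their median peaks were 536, 638.5, 678 and 757, below those of CGE-derived cells in each library. No cell passed from cluster to cluster in these data, since each cell was measured once, and whether the cells of clusters 11 and 13 belong to the same lineage was not tested.

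**Figure D5:**
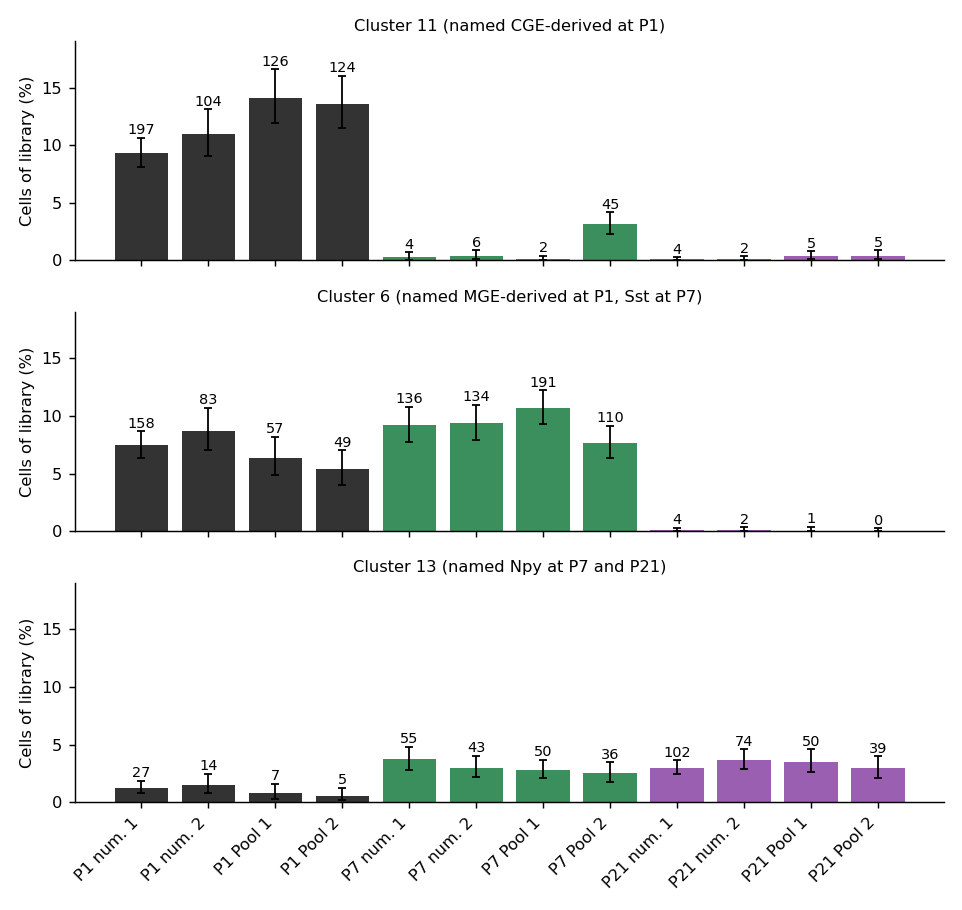
Share of each library's cells (vertical axis, %) in clusters 11, 6 and 13, for the 12 mouse libraries ordered by age (num. stands for numbered). Bars are library values, thin lines 95% exact binomial intervals, and the printed numbers are cell counts. Cluster 11 holds 9.32% to 14.1% of P1 cells and 45 cells of P7 Pool library 2, and cluster 6 spans P1 and P7.

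CGE-derived cells were spread over the index codes that mark wells. Cell names carry a pair of code sets, called A1.P1 and A2.P2 in the names. CGE-derived cells of a library occurred with 64 to 86 of its 95 or 96 A1.P1 codes and with 57 to 76 of its 86 to 88 A2.P2 codes. The most that shared an A1.P1 code was 8 cells and the most on an A2.P2 code 7. Full codes recur between P1 libraries, and 239 were shared by numbered library 1 and Pool library 1, and 109 by numbered library 2 and Pool library 2. Of the 239 codes, 21 marked a CGE-derived cell in numbered library 1, 33 in Pool library 1 and 1 in both. Of the 109 codes, 9 did in numbered library 2, 15 in Pool library 2 and 0 in both. The overlap expected of unrelated cells was not computed, so no conclusion is drawn from these counts. Libraries 1 and 2 of the same kind shared 0 full codes because they shared 0 A2.P2 codes, so this overlap says nothing on whether they are separate samples. Whether they were made from the same cell suspension is not stated.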

How the data were processed

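Single-cell ATAC-seq libraries of mouse cortex were made by plate-based combinatorial indexing, in which fixed cells were tagged with barcoded transposase, pooled and sorted again into wells. The authors aligned reads with Bowtie2 to mm10, removed duplicates with Picard, sampled libraries to a similar depth per cell, called peaks with MACS2 (the caller and the build are also in the submitters' processing notes) and named clusters from gene activity scores of marker genes. The deposited values are counts per cell, reads and peaks with a read, without normalization. Median reads per cell at P1 were 4587 and 6371 in numbered and 1912 and 1925 in Pool libraries, so depth was not alike. Whether these reads were counted before or after the sampling is not stated in the sources used here. The lowest values were 1000 reads and 300 peaks. No treatment of doublets is stated in the sources used here. A sort into wells precedes these shares, which are shares of recovered cells. Depth sets the precision: shares carry 95% exact binomial intervals, which cover counting error only.

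Groups came from the age labels, and table rows were matched to samples by title. The table's library column puts Pool before the title of the numbered libraries too, and their cell names carry the title without it. Each library weighed equally. Types were compared within libraries by exact sign-flip tests on library values (smallest p 0.125 with 4 pairs), counts by Fisher's exact test, with Benjamini-Hochberg adjustment over 6 comparisons each. Peaks at matched reads were the mean differences within bins of log2 reads, weighted by CGE-derived cells, and this step was checked on simulated data. The check accepted errors larger than the differences reported. It used more peaks per read than the numbered P1 libraries had, so it does not establish the precision of values this small. Reads of cluster 11 were to be compared between ages over libraries with at least 10 such cells. P7 had 1 such library and P21 had 0, so no comparison was made. The tables hold no gene values, so no gene was named as a result. Members, lists and tests were chosen with earlier results of these data known. Nothing in the labels says that libraries came from separate animals, so p-values may measure technical spread only. Of the marmoset table, the number of cells and the type names were used. Python 3.11.15, scipy 1.17.1 and pandas 2.3.3 were used.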

Additional observations from a re-analysis of the deposited data

Results flagged for a closer look

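Of 16 sets of 4 libraries examined with Dixon's criterion, 2 had a library past its 95% critical value. Chance marks about 1 set in 20 when sets are independent. These sets share cells and libraries, and some repeat the same values, so their number is not compared with that rate. The share of cells in cluster 11 at P7 was 3.13% in Pool library 2 and at most 0.419% in the others (gap over range 0.898). The difference in median reads between CGE-derived and MGE-derived interneurons was 1705 in numbered P1 library 2 and at most 422.5 in the others (gap over range 0.848).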

How the results depend on the processing

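The CGE-derived share of interneurons, 62.9% as reported, and of neurons, 14.1%, moved by less than their spread between libraries under all 13 alternatives each. For a single kind of library, or with 1 library left out, this could not be otherwise. Those means reuse the library values from which the spread was taken. The shares of interneurons ran from 55.6% (numbered libraries alone) to 70.3% (Pool libraries alone), and from 60.0% to 65.4% with 1 library left out. The shares of neurons ran from 12.4% to 15.8%, and from 13.4% to 15.0% with 1 library left out. The planned filling of unassigned P1 cells changed nothing, because no cluster with a P1 name held an unassigned P1 cell. Counting P1 cells of cluster 13 as interneurons gave 59.8% and 13.9%.

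The 4 pairs of libraries past the threshold were 2 with at least 570 peaks, and the exact permutation test over libraries, for a difference of 14.7 points, could not pass. CGE-derived minus MGE-derived differences, averaged over libraries, stayed above 0 in all 11 alternatives each. With 1 library left out they ran from 326 to 830 reads and 140 to 191 peaks, and matched-read differences from 8.75 to 19.4 peaks. Median reads and peaks were higher in all 4 libraries, so alternatives that left out, split or averaged libraries could not turn their sign. Dropping the pairing or averaging within a kind leaves each mean unchanged by construction. The difference in reads was 1064 in numbered and 278 in Pool libraries. Mean peaks in place of medians differed by 91.7, and medians with at least 2000 reads by 83, with Pool library 1 turned in both.

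Against pyramidal neurons the sign of values near 0 was not stable. Reads differed by -53.3 and peaks by -16 in numbered libraries alone, by -12.4 and -1.53 with means, and by -29.5 and -5.13 with at least 2000 reads. With 1 library left out they ran from -101 to 168 reads and from -1 to 47.8 peaks, with negative reads (-101 and -38.8) without numbered library 2 and Pool library 1 in turn and -1 peaks without Pool library 1. Matched-read differences ran from 1.16 to 7.97 peaks with 1 library left out. With read bins 0.125 wide on the log2 scale the mean difference was 0.147 peaks. The cause was not tested.

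Without pairing types within a library (no replicate block), the smallest adjusted p was 0.857 and the differences kept their values, such as 671 reads and 167 peaks against MGE-derived cells and 12.2 peaks at matched reads. No comparison of ages was blocked by replicate number, since no comparison of ages was run. The minimum of 570 peaks, the averaging of libraries within a kind (n = 2, smallest p 0.50) and the counting of cluster 13 were chosen after seeing the data. Pairs of libraries of the same kind had compositions over 8 names within sampling noise (chi-square p = 0.207 and 0.933), unlike the 4 mixed pairs. They were kept as separate libraries because the labels list them as separate samples, and nothing here shows that they were prepared separately.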
